A study of Caenorhabditis elegans with 9 samples.

Results

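Expression of 6 genes that control the identity of VA motor neurons was described in Caenorhabditis elegans: unc-4, unc-37, unc-3, bnc-1, pag-3 and egl-5. The genes were named for their known roles, in a choice made with earlier results of these data known, and each was found by its symbol among the 2349 genes of the authors' deposited table that sets wild type VA neurons against whole worms. Being in that table is itself a result of the measurement, since it was restricted by the authors to genes they found higher in the sorted cells (2349 of 2349 at a false discovery rate under 0.05, percent called 100). The direction of every difference below was therefore fixed in advance, and its test is not independent evidence.

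VA neurons are acetylcholine-releasing motor neurons whose cell bodies lie in the ventral nerve cord. They innervate ventral body wall muscle and take part in backward locomotion. Their sister cells, the VB neurons, take part in forward locomotion. UNC-4 is a homeodomain repressor that, together with the Groucho-type corepressor UNC-37, keeps VA neurons from acquiring VB features. UNC-3, a transcription factor of the COE family, switches on the cholinergic and other effector genes that motor neurons of this kind share. BNC-1 is a zinc finger protein of the basonuclin family that helps to separate VA and VB from other motor neuron classes. PAG-3 is a zinc finger protein related to vertebrate Gfi factors that acts in the neuroblast lineages of the ventral cord, and EGL-5 is a Hox protein of the Abdominal-B type that patterns posterior cells, among them posterior ventral cord neurons.

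RNA was sequenced from animals synchronized at the second larval stage (L2), with 3 libraries in each of 3 groups. The wild type VA group and the unc-4 VA group carry the same label for the strain, pUnc-4::mCherry; pUnc-4C::GFP, and neither label names the unc-4 allele. Cells positive for the red reporter alone were sorted by flow cytometry, a gate that also admits AVF neurons, which express unc-4 too. The reference group was whole N2 worms, with no reporter in the label, frozen over liquid nitrogen and not sorted. Sorting, dissociation and reporters thus differ between the groups along with cell content and cannot be told apart from it. Nothing in the labels places replicates in separate cultures, so the p-values measure the spread between these libraries, which may be technical.

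All values are TPM (a transcript abundance scaled for transcript length and to a fixed library total), so levels may be compared between genes, but the sequencing depth is unknown and no detection floor can be given. Of 6 cholinergic motor neuron markers, 5 were listed and unc-129 was not. One of the 5 is unc-3 itself, and the other 4 had a summed level of 689 to 1142 TPM in the VA libraries and 23.6 to 30.9 TPM in whole worms. Of 5 GABA neuron markers only snf-11 was listed. Markers of touch neurons (0 of 4), body muscle (0 of 5), intestine (0 of 4), hypodermis (0 of 4), pharynx (0 of 3) and germline (0 of 3) were not listed, which leaves their levels in the sorted cells unknown. These marker lists are short, and other genes of the mec and col families were listed. Those named here were picked after their values were seen. Mean levels of mec-12, mec-7 and mec-2 were 6708, 635 and 178 TPM in VA neurons, against 437, 166 and 13.8 TPM in worms. The collagen gene col-68 averaged 61.8 against 1.97 TPM. A family name does not make these genes markers of a tissue. With lists this short, the absent markers do not show that genes of those tissues were not enriched. A set of 9 heat shock genes took up 5.04%, 32.4% and 1.79% of all TPM in VA replicates 1, 2 and 3, against at most 0.190% in whole worms. TPM adds to a fixed total, so a large share of this kind lowers the TPM of every other gene in VA replicate 2, and values rescaled to the total without those 9 genes are also given for the VA libraries. The library names carry running numbers, 33, 34 and 67 for VA replicates 1, 2 and 3, 64 to 66 for the unc-4 libraries and 26 to 28 for the worms, whose meaning the labels do not give.

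The 6 genes were all higher in VA neurons than in whole worms, but on very different scales. In VA neurons the levels of unc-4, bnc-1 and unc-3 were the highest, between 471 and 1311 TPM in single libraries, followed by the corepressor gene unc-37 and then by pag-3 and egl-5. In each of the 6 genes every VA library was above every worm library, as in 91.9% of all listed genes. Differences below are of mean log2(TPM + 1) with the standard error (SE) of limma's test, fitted to the 2328 listed genes whose mean reached 1 TPM in VA neurons or in worms, and adjusted by the Benjamini-Hochberg method over all of them. The 6 genes all passed that fit at an adjusted p under 0.05, as did 95.1% of the genes in it, a background so high that passing says little about these genes in particular.

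**Figure D1:**
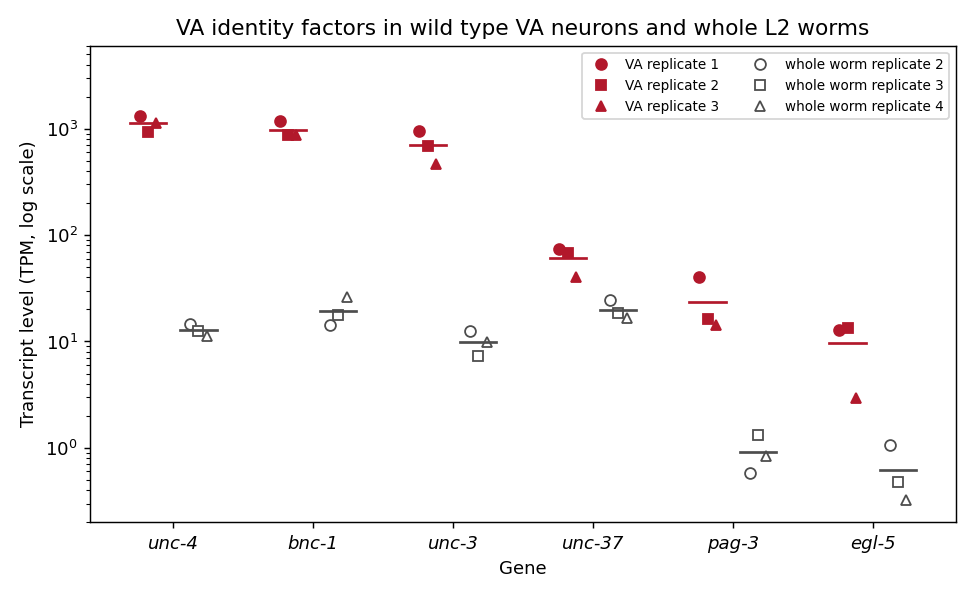
TPM on a log scale for each gene, with filled red symbols for the 3 wild type VA libraries, open grey symbols for the 3 whole-worm libraries and lines at the group means. Every red symbol lies above every grey symbol of the same gene, with a narrow gap for unc-37 (40.3 against 24.6 TPM) and a wide one for unc-4 (936 against 14.6 TPM).

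The homeobox gene unc-4 (WBGene00006744) lies on chromosome II from 9897751 to 9900376 on the minus strand of WBcel235, with 1 annotated protein-coding transcript. It read 1311, 936 and 1129 TPM in VA replicates 1, 2 and 3, and 14.6, 12.4 and 11.3 TPM in whole-worm replicates 2, 3 and 4. All VA libraries were high, and the lowest was 64.0-fold above the highest worm library. The difference was 6.35 ± 0.32 (SE, n = 3 per group, adjusted p = 2.6e-07 by limma), the 12th largest of 2328 genes. Sorting used parts of the unc-4 promoter, which favours cells with high unc-4 by design. Whether reads from the reporters, which the worms lack, add to the unc-4 level was not tested. Its VA level ranked 49 of 2349 genes, and its coefficient of variation over the VA libraries was 16.6%, against a median of 37.2% for the genes in the fit. After rescaling without the heat shock genes the 3 VA libraries read 1380, 1385 and 1150 TPM, with a coefficient of variation of 10.3%.

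The corepressor gene unc-37 (WBGene00006773; chromosome I, 6742299 to 6745329, minus strand) read 73.4, 68.4 and 40.3 TPM in VA replicates 1, 2 and 3. In whole-worm replicates 2, 3 and 4 it read 24.6, 18.7 and 16.6 TPM. The groups did not overlap, but the lowest VA library was only 1.64-fold above the highest worm library. Rescaled without the heat shock genes, the VA values were 77.3, 101 and 41.06 TPM. Its difference of 1.53 ± 0.34 (SE, n = 3 per group, adjusted p = 0.0017 by limma) was the smallest of the 6, ranked 1449 of 2328, and lay below the median of 1.83 over the genes in the fit. UNC-37 is known as a partner of many repressors in many tissues. The 3′ end of unc-37 shares 83 bases with W02D3.12 on the opposite strand, and since the use of strand in counting is not given in the sources used here, reads from that overlap cannot be assigned.

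The terminal selector gene unc-3 (WBGene00006743) spans 14773538 to 14783568 on the plus strand of chromosome X. It read 946, 693 and 471 TPM in VA replicates 1, 2 and 3, and 12.5, 7.33 and 9.85 TPM in whole-worm replicates 2, 3 and 4. Every VA library was far above the worms, although VA replicate 1 read 2.01 times VA replicate 3. Rescaled without the heat shock genes, the VA libraries read 996, 1026 and 479 TPM. The difference was 5.98 ± 0.36 (SE, n = 3 per group, adjusted p = 4.3e-07 by limma), ranked 19 of 2328. Whole-worm ranges of unc-3 and unc-4 overlapped, but unc-4 was above unc-3 in each of the 3 worm libraries.

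The basonuclin gene bnc-1 (WBGene00044791; chromosome V, 12275570 to 12277046, minus strand) read 1180, 874 and 875 TPM in VA replicates 1, 2 and 3. Whole-worm replicates 2, 3 and 4 read 14.3, 17.8 and 26.4 TPM. On the deposited scale VA replicate 1 was the highest and replicates 2 and 3 were nearly equal, but after rescaling the values were 1243, 1293 and 891 TPM, with replicate 3 the lowest. As deposited, the worm libraries spread more in relative terms than the VA libraries (coefficient of variation 32.0% against 18.1%). The difference was 5.61 ± 0.35 (SE, n = 3 per group, adjusted p = 4.3e-07 by limma), ranked 26 of 2328. Its 3′ end shares 89 bases with capg-2 on the opposite strand, and capg-2 was not listed.

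The neuroblast factor gene pag-3 (WBGene00003909; chromosome X, 14950752 to 14954648, minus strand) was present at a far lower level. It read 40.2, 16.25 and 14.3 TPM in VA replicates 1, 2 and 3, and 0.576, 1.31 and 0.833 TPM in whole-worm replicates 2, 3 and 4. VA replicate 1 was well above the other two, yet even the lowest VA library was 10.9-fold above the highest worm library. After rescaling the VA values were 42.3, 24.03 and 14.5 TPM. The difference was 3.56 ± 0.43 (SE, n = 3 per group, adjusted p = 2.2e-05 by limma), ranked 274 of 2328. The ratio of group means was 26.0, and without VA replicate 1 it was 16.8.

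The Hox gene egl-5 (WBGene00001174) lies on the plus strand of chromosome III from 7814374 to 7817141 and has 3 annotated transcripts, the most of the 6. It read 12.8, 13.3 and 2.95 TPM in VA replicates 1, 2 and 3, and 1.08, 0.476 and 0.321 TPM in whole-worm replicates 2, 3 and 4. VA replicate 3 stood 4.51-fold below VA replicate 2, and it was 2.74-fold above the highest worm library. After rescaling, VA replicates 1 and 2 read 13.4 and 19.7 TPM, and replicate 3 stood 6.56-fold below replicate 2. The difference was 2.53 ± 0.51 (SE, n = 3 per group, adjusted p = 0.00086 by limma), ranked 676 of 2328. The ratio of group means was 15.5, and it was 24.3 without whole-worm replicate 2. In pooled cells, a low level from a few posterior cells and a low level from every cell cannot be told apart, here or for any other gene.

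**Figure D2:**
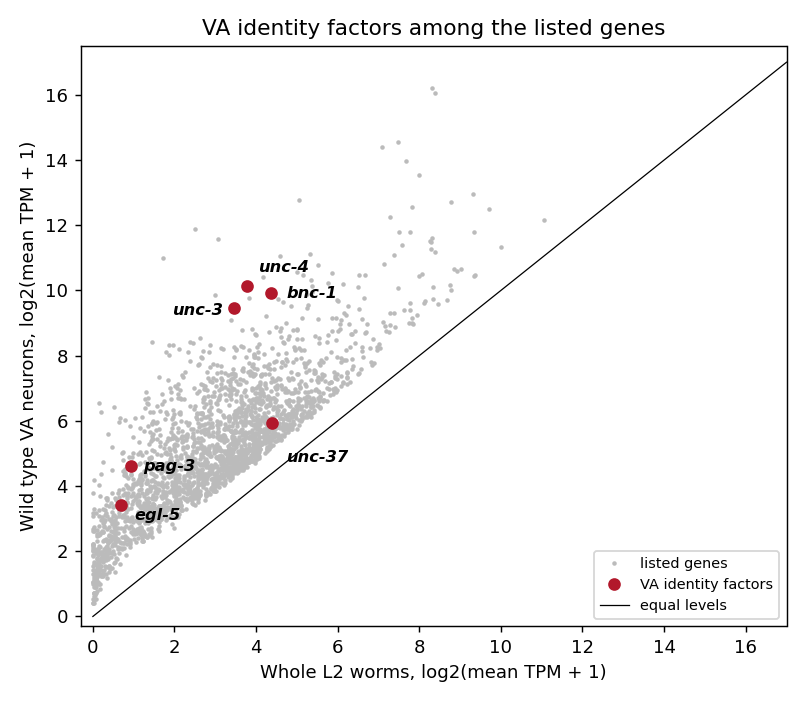
Each grey point is 1 of the 2349 listed genes, with log2(mean TPM + 1) in whole worms on the horizontal axis and in wild type VA neurons on the vertical axis, and the 6 genes are in red. The points of unc-4, bnc-1 and unc-3 lie near the upper edge of the cloud, while unc-37 lies within the cloud, nearer to the line of equal levels than the other 5 red points.

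In the authors' deposited table the 6 folds ran in the same order as the differences here, from 117 for unc-4 and 92.7 for unc-3 through 66.4 for bnc-1, 33.9 for pag-3 and 19.8 for egl-5 to 3.99 for unc-37. The median fold in the authors' deposited table was 6.94, so unc-37 is the only one of the 6 below it. With 3 libraries against 3, an exact two-sided permutation test cannot give a p under 0.1, and each of the 6 genes reached that smallest value.

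The order of levels differed between the sorted cells and the worms. In VA neurons the order of means was unc-4 (1126 ± 187 TPM, SD, n = 3), bnc-1 (977 ± 176), unc-3 (703 ± 238), unc-37 (60.7 ± 17.8), pag-3 (23.6 ± 14.4) and egl-5 (9.67 ± 5.83). The ranges of unc-4 and bnc-1 overlapped, as did those of bnc-1 and unc-3, but within each of the 3 VA libraries the order was unc-4, then bnc-1, then unc-3. The other neighbours in this order had ranges that did not overlap as deposited. After rescaling without the heat shock genes, the highest pag-3 library (42.3 TPM) was above the lowest unc-37 library (41.06 TPM), and the highest egl-5 library (19.7 TPM) above the lowest pag-3 library (14.5 TPM). In whole worms unc-37 came first at 19.97 ± 4.14 TPM (SD, n = 3), followed by bnc-1 (19.5 ± 6.22), unc-4 (12.8 ± 1.70), unc-3 (9.91 ± 2.60), pag-3 (0.907 ± 0.373) and egl-5 (0.624 ± 0.398). Neighbours in the worm order had overlapping ranges except unc-3 and pag-3, so unc-37 and bnc-1 were not distinguishable there. Within each of the 3 worm libraries unc-4 was above unc-3, as in the VA libraries.

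Set against unc-37 within the same library, unc-4 was lower in whole worms and far higher in VA neurons. Sorting on unc-4 promoter reporters favours this shift by design, and a part of reporter reads in it was not tested. The ratio rests on the same TPM values as the 2 differences given above, so it is no separate evidence. The TPM of unc-4 was 17.8, 13.7 and 28.0 times that of unc-37 in VA replicates 1, 2 and 3, and 0.594, 0.666 and 0.678 times in whole-worm replicates 2, 3 and 4. A ratio within a library is the same before and after the rescaling for heat shock genes. The level of bnc-1 was 16.07, 12.8 and 21.7 times that of unc-37 in VA replicates 1, 2 and 3, and 0.580, 0.954 and 1.58 times in whole-worm replicates 2, 3 and 4. For unc-3 the ratio held between 10.1 and 12.9 in the VA libraries and between 0.393 and 0.592 in the worms. The rarer genes stayed below unc-37 in both groups, at 0.237 to 0.547 of its level for pag-3 and 0.0731 to 0.194 for egl-5 in VA neurons.

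**Figure D3:**
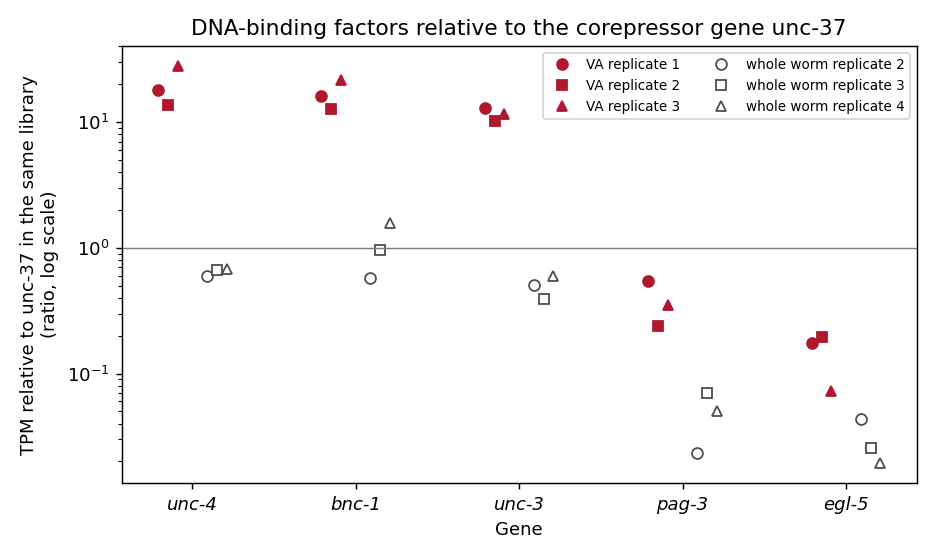
TPM of 5 genes divided by that of unc-37 in the same library, on a log scale, with filled red symbols for VA libraries, open grey symbols for whole worms and a line at equal levels. In VA libraries unc-4, bnc-1 and unc-3 are above 10 times unc-37, and in all worm libraries but 1 (bnc-1 in whole-worm replicate 4) they are below it.

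All 5 ratios to unc-37 were apart between the groups, where 44.6% of 2194 listed genes with signal in every library were apart from unc-37 in either direction. Of the 15 pairs among the 6 genes, 10 had ratios that did not overlap between VA and worm libraries, against 47.1% of all 2407915 pairs of listed genes with signal in every library. The 5 pairs that overlapped were unc-4 with unc-3, unc-3 with bnc-1, and each pairing of bnc-1, pag-3 and egl-5 with one another. For unc-4 over unc-3 the ratio was 1.39, 1.35 and 2.40 in the VA libraries. In the worm libraries it was 1.17, 1.69 and 1.15, so the ranges overlapped, with mean log2 ratios 0.33 apart. An overlap of 3 libraries with 3 does not show that the ratio was equal.

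Variation among the VA libraries was shared by most of the 6 genes. VA replicate 1 was the highest library for 5 of them and replicate 2 for egl-5. VA replicate 3 was the lowest for unc-37, unc-3, pag-3 and egl-5, and replicate 2 for unc-4 and bnc-1. Over all 2328 genes of the fit, replicate 1 was the highest in 63.2% and replicate 3 the lowest in 53.2%, so this pattern was common among listed genes. With the heat shock genes left out of the total, replicate 3 was the lowest for all 6 genes, as for 69.3% of the genes of the fit, and replicate 2 was the highest for 5 of 6, as for 49.1% of those genes. Rescaling lowered the coefficient of variation of unc-4 (to 10.3%) and pag-3 (from 61.2% to 52.4%) and raised that of unc-37 (from 29.4% to 41.4%), unc-3 (from 33.8% to 36.8%), bnc-1 (from 18.1% to 19.2%) and egl-5 (from 60.3% to 69.98%). VA replicate 3 is also the library whose name has a number apart from the other wild type VA libraries, and the part of that in these levels was not tested.

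**Figure D4:**
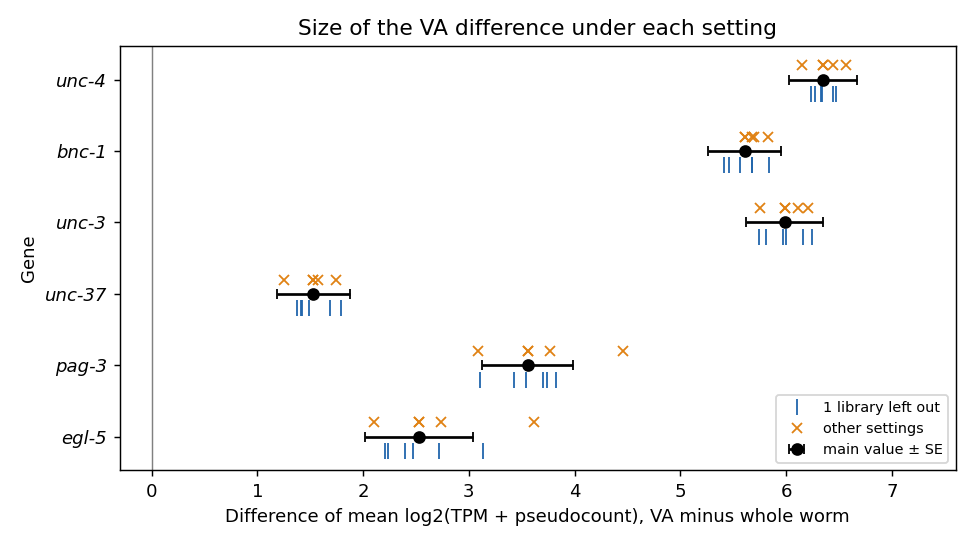
Difference of mean log2(TPM + pseudocount) between VA neurons and whole worms for each gene, with a black point and bar for the value and its SE, blue ticks for fits with 1 library left out and orange crosses for 5 other settings. All values lie above 0, from 1.26 for unc-37 to 6.57 for unc-4, and the crosses farthest to the right for pag-3 and egl-5 are those with a pseudocount of 0.1.

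The 6 genes are spread over 5 chromosomes, with unc-3 and pag-3 both on X. Only unc-4 has an adjacent protein-coding gene that was listed too, against 35.8% of the 2313 listed protein-coding genes. That neighbour, F26C11.3, lies upstream of unc-4 with 2680 bases between the genes, and it averaged 93.5 TPM in VA neurons and 0.101 TPM in worms. The sorted strain carries unc-4 promoter reporters and the worms do not. Whether reads from those reporters add to the F26C11.3 level was not tested. Gene spans ran from 1477 bases for bnc-1 to 10031 bases for unc-3. Non-coding RNA genes on the opposite strand share 140, 150 and 90 bases with unc-3, pag-3 and egl-5.

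For each of the 6 genes, the 3 most similar listed genes were found by the Euclidean distance of log2(TPM + 1) over the 6 VA and worm libraries, among 2322 other genes. Nearest to unc-4 were K09E4.4, the immunoglobulin-domain gene oig-5 and the neuropeptide gene nlp-9, at distances of 1.68, 1.81 and 1.82. Both oig-5 (distance 1.12) and nlp-9 (1.33) were also the nearest to bnc-1, followed by nlp-14 (1.63). Nearest to unc-3 were the dendrite morphogenesis receptor gene dma-1 (1.46), the acetylcholine receptor subunit gene acr-2 (1.48) and K09F6.13 (1.58). These distances are wide in comparison with those of unc-37, which had closer matches in dnj-5, Y37E3.1 and pqe-1 (0.33, 0.39 and 0.40), of which dnj-5 read 68.6, 64.6 and 34.9 TPM in VA replicates 1, 2 and 3. For pag-3 they were Y43F8B.20, the discoidin receptor gene ddr-1 and ZK816.1 (0.70, 0.84 and 0.98). For egl-5 they were Y39B6A.7, the protease gene try-5 and the acetylcholine receptor gene acr-21 (0.32, 0.67 and 0.73), and Y39B6A.7 shared the low VA replicate 3 (12.2, 12.1 and 2.34 TPM in VA replicates 1, 2 and 3).

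Of a list of 20 transcription factor genes known from ventral cord motor neuron classes, 12 were listed and 11 of these passed limma's test, where 95.1% of all genes in the fit passed. The median difference of the 12 was 3.50, against 1.83 over all genes in the fit. The list holds unc-4, unc-3, bnc-1, pag-3 and egl-5 themselves. The share of all annotated genes that are listed was not computed. Counts of listed genes, here and for the other gene lists, therefore have no background to be read against. After unc-4, bnc-1 and unc-3 the highest VA level in the list was that of the zinc finger homeobox gene zag-1, at 337, 289 and 330 TPM in VA replicates 1, 2 and 3 and 7.93, 5.79 and 5.04 TPM in whole-worm replicates 2, 3 and 4. Its difference was 5.48 ± 0.31 (SE, n = 3 per group, adjusted p = 4.3e-07 by limma). The nuclear receptor gene unc-55, which acts in other ventral cord motor neurons, missed the threshold (adjusted p = 0.11 by limma) and was named after its values were seen. Its level ran from 0.0256 TPM in VA replicate 3 to 33.5 TPM in VA replicate 2. The homeobox genes vab-7 and ceh-12 were among the 8 not listed.

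Of 10 Hox genes and Hox cofactor genes, 5 were listed and all 5 passed, against 95.1% of all genes in the fit, with a median difference of 2.65 against 1.83. By mean level in VA neurons the 4 Hox genes among them came in the order mab-5, lin-39, ceh-13 and egl-5. The gene mab-5, which patterns the posterior mid-body, read 157, 130 and 77.04 TPM in VA replicates 1, 2 and 3, against 10.5, 7.64 and 10.6 TPM in whole-worm replicates 2, 3 and 4. For lin-39, which patterns the central body, the values were 99.9, 65.6 and 74.6 TPM against 12.1, 10.3 and 11.4 TPM. The anterior gene ceh-13 read 52.4, 33.3 and 34.0 TPM against 15.3, 14.3 and 16.9 TPM. The range of egl-5 lay below those of these 3 genes in the VA libraries, and the posterior genes nob-1 and php-3 were not listed. The cofactor gene unc-62 was the most abundant of the list at 611, 318 and 575 TPM against 96.3, 68.5 and 66.0 TPM.

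Of 8 genes tied to Groucho-type corepression, 6 were listed and all 6 passed limma's test, against 95.1% of all genes in the fit. Their median difference of 1.92 was close to the 1.83 over all of those genes. The histone deacetylase gene hda-1 was the most abundant at 89.6, 64.7 and 52.0 TPM in VA replicates 1, 2 and 3, against 31.6, 22.1 and 24.0 TPM in whole-worm replicates 2, 3 and 4. Its range in VA neurons overlapped that of unc-37. The corepressor gene ctbp-1 read 67.6, 66.0 and 41.7 TPM against 7.87, 5.86 and 3.36 TPM, a difference of 3.18 ± 0.37 (SE, adjusted p = 1.7e-05 by limma). The gene lsy-22, which encodes another Groucho-related protein, read 49.1, 34.0 and 36.1 TPM against 13.2, 10.3 and 7.30 TPM. Levels of unc-37, ctbp-1 and hda-1 thus lay in one range in the sorted cells, whereas ctbp-1 was lower than the others in the worms.

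**Figure D5:**
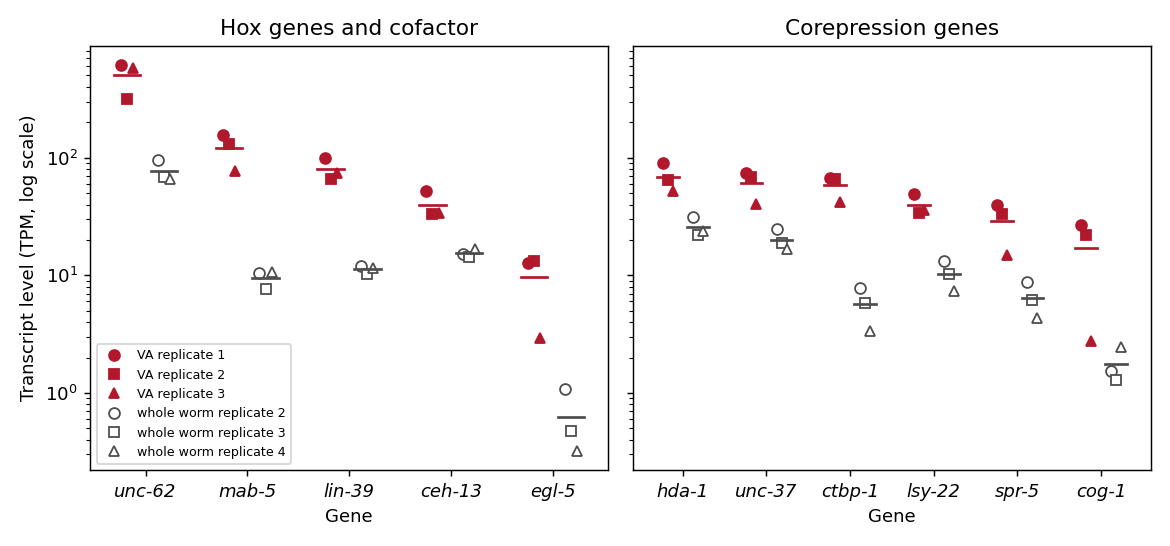
TPM on a log scale for listed Hox and cofactor genes (left) and listed corepression genes (right), with symbols and mean lines as for the 6 identity genes. VA libraries lie above worm libraries for every gene shown, with egl-5 the lowest of the Hox genes and unc-37, hda-1 and ctbp-1 close together in VA neurons.

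Effector genes of cholinergic motor neurons include genes that UNC-3 switches on. Of 20 effector genes of cholinergic motor neurons, many of them reported targets of UNC-3, 16 were listed and all 16 passed limma's test, against 95.1% of all genes in the fit, with a median difference of 3.79 against 1.83. The secreted synapse organizer gene madd-4 led at 1012, 854 and 400 TPM in VA replicates 1, 2 and 3 against 45.6, 35.8 and 31.4 TPM in whole-worm replicates 2, 3 and 4. Next came acr-2 at 666, 349 and 327 TPM against 18.5, 11.5 and 11.7 TPM. The potassium channel gene twk-40 read 397, 238 and 193 TPM, and the acetylcholine transporter gene unc-17, which overlaps cha-1, read 253, 167 and 357 TPM. VA replicate 3 was the lowest library in 10 of the 16 listed effector genes, against 53.2% of all genes in the fit. It was the highest in 4, against 18.3% of all genes in the fit. These 4 were unc-17, cha-1, cho-1 and ace-2, which act in acetylcholine synthesis, transport or breakdown. They were picked out after their values were seen. Of 5 genes that earlier work placed under repression by UNC-4 in VA neurons, 2 were listed, del-1 and glr-4. Both passed limma's test, against 95.1% of all genes in the fit. In VA replicates 1, 2 and 3 del-1 read 323, 237 and 183 TPM, and glr-4 read 51.8, 32.4 and 19.8 TPM. In whole-worm replicates 2, 3 and 4 del-1 read 6.36, 5.39 and 4.13 TPM, and glr-4 read 6.40, 6.04 and 7.94 TPM. Only ceh-12 of the 5 is in the authors' table of genes higher in unc-4 VA neurons.

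The other comparison of the authors sets VA neurons labelled unc-4, with no allele named, against wild type VA neurons. None of the 6 genes (0 of 6) appears among the 214 genes that the authors' deposited table lists as higher in unc-4 VA neurons. That table holds selected genes that are higher in the mutant, so no unc-4 library value is at hand for any of the 6, and a lower, equal or slightly raised level in the mutant cannot be told apart. The transcript of unc-4 itself gives no check of the mutant label. Of the 20 motor neuron class factors, 2 do appear there, chosen for mention after their values were seen. No share over all genes can be set beside this count, since only selected genes are at hand. Genes in that table were selected as higher in the mutant, so the direction of their differences was fixed in advance. The GABA motor neuron homeobox gene unc-30 read 80.7, 51.6 and 134 TPM (unc-4 libraries in the order of their replicate numbers); in the wild type VA libraries the values were 11.01, 6.04 and 13.2 TPM, without overlap. The VB gene ceh-12, a reported UNC-4 target, read 40.2, 139 and 85.5 TPM in the mutant, while its wild type mean was 0.741 ± 0.321 TPM (SD, n = 3).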

How the data were processed

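Libraries of sorted VA neurons and whole L2 worms were grouped by their titles. The values are TPM as deposited by the authors, per the file headers, in 2 tables of selected genes, with the authors' linear fold change (a ratio) and FDR p-value, per the file headers. The build that the submitters' processing notes name is WBcel235; aligner, counting and test are not given in the sources used here. Of the unc-4 table, 2 rows that name no gene were left out. Coordinates come from Ensembl release 115 of that build, which holds 2337 of the 2349 gene identifiers.

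TPM values were analysed with limma (3.58.1, run in R 4.3.3) after log2(TPM + 1) transformation, with a trended variance, on a scale that understates changes of low genes. The function was tested on simulated data. Depth is unknown. Members and gene lists were chosen with earlier results of these data known. By plan, genes named with values were the 6 members, at most 4 passing genes per list by VA level, and the 3 nearest genes to each member. Other genes were named outside this rule after their values were seen. Among them were mec-12, mec-7, mec-2, col-68, unc-55, cha-1, cho-1, ace-2, unc-129, unc-30 and ceh-12. F26C11.3 was named as a neighbour of unc-4. Promoter and protein sequences were not analysed here. Alternatives were a pseudocount of 0.1, no filter, a minimum mean of 5 TPM, rescaling without 9 heat shock genes, 1 library left out, and a replicate block.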

Additional observations from a re-analysis of the deposited data

How the results depend on the processing

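The 6 differences kept their direction and stayed under an adjusted p of 0.05 in limma's test in all 11 alternatives run on each. With 1 library left out they lay between 6.23 and 6.47 for unc-4, 5.74 and 6.24 for unc-3, 5.42 and 5.84 for bnc-1, 3.11 and 3.82 for pag-3, 2.21 and 3.14 for egl-5, and 1.37 and 1.80 for unc-37, whose largest adjusted p was then 0.011. The count of genes past the threshold was 2214 and lay between 1899 and 2247 with 1 library left out. A pseudocount of 0.1 raised pag-3 to 4.46 and egl-5 to 3.62, the genes with the lowest worm levels. Rescaling without the heat shock genes raised every one of the 6 differences, to 6.57 for unc-4 and 1.75 for unc-37. The titles share replicate numbers 2 and 3 between the groups. Deviations of same-numbered libraries correlated at 0.068 and -0.014 across 2328 genes. No pairing by number was seen in these genes, but a check on 2 shared numbers cannot exclude one. With the replicate block, which leaves 1 residual degree of freedom, 1597 genes passed. Its differences rest on replicates 2 and 3 alone, since VA replicate 1 and whole-worm replicate 4 have no partner. They were 6.15 for unc-4, 5.75 for unc-3, 5.69 for bnc-1, 3.09 for pag-3, 2.10 for egl-5 and 1.26 for unc-37. No other fit on the unc-4 table was run, since none of the 6 genes is in it. The planned search of promoter motifs was not run. Unknown depth limits the lowest values, those of pag-3 and egl-5 in whole worms.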
